A study of Mus musculus with 22 samples.

Results

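The 8 genes described here, Slc1a2, Slc1a3, Gfap, Aqp4, Gja1, Aldh1l1, Slc4a4 and Gpc5, are widely used as astrocyte genes and were taken by name from the 21755 protein-coding genes on chromosomes 1 to 19 and X. For each gene, the level of 5-methylcytosine (5mC) or 5-hydroxymethylcytosine (5hmC) was the mean over every genomic bin that touched the gene's span in GENCODE release M21 on mm10 (GRCm38). The rule names the genes and uses no level, though the list was drawn up with earlier results of these data known. The study compared 3 brain regions of C57BL/6 mice, female per the study's methods and 8 weeks old, with no treatment or genetic change: cortex (the whole cerebral cortex without the hippocampus), the whole olfactory bulb and the whole cerebellum. TAB-seq, which reads only 5hmC as C after bisulfite conversion, gave 5hmC from 3 libraries per tissue in bins of 1 Mb. OxBS-seq, which reads only 5mC as C, gave 5mC from 3 cortex, 2 olfactory bulb and 2 cerebellum libraries in bins of 100 kb. The labels call the replicates technical but also say that they came from independent mice, so the spread between libraries may be partly technical. RNA-seq libraries of the same tissues were not analysed here, so the astrocyte label of the 8 genes was not checked against their expression. All libraries came from whole tissue, and a level there mixes every cell type present, so a different mix of cells and a different level within astrocytes cannot be told apart.

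Cytosines followed by guanine (CpG sites) are the main place of methylation in mammalian DNA, and TET enzymes oxidize 5mC to 5hmC, a mark that is abundant in the brain and often found along gene bodies. Astrocytes are the glial cells that clear transmitter from synapses, move water and ions, couple to each other through gap junctions and respond to injury. Slc1a2 (GLT-1) and Slc1a3 (GLAST) encode the glutamate transporters of astrocytes, Slc4a4 a sodium bicarbonate cotransporter, Aqp4 the water channel of the endfeet, Gja1 the gap junction protein connexin 43, Gfap an intermediate filament protein, Aldh1l1 an enzyme of folate metabolism and Gpc5 a cell surface heparan sulfate proteoglycan.

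How much of a bin level belongs to the gene differed widely between the 8. Gpc5 (chromosome 14, 115092215 to 116525179, + strand) was the longest at 1433.0 kb, lay in 16 bins of 100 kb and filled 89.56% of them. Slc4a4 (chromosome 5, 88886818 to 89239653, + strand, 352.8 kb) filled 70.57% of 5 bins, and no other protein-coding gene lay in the bins of either. Slc1a2 (chromosome 2, 102658659 to 102790784, + strand, 132.1 kb) filled 66.06% of 2 bins, which it shared with Pamr1. Slc1a3 (chromosome 15, 8634124 to 8710764, - strand, 76.64 kb) filled 38.32% of 2 bins, and Aldh1l1 (chromosome 6, 90486427 to 90600203, + strand, 113.8 kb) 37.93% of 3 bins that it shared with 5 other protein-coding genes. The 3 shortest genes filled little of their bins. Gja1 (chromosome 10, 56377330 to 56402513, + strand) filled 12.59%, Aqp4 (21.49 kb, - strand) 10.74% and Gfap (chromosome 11, 102887336 to 102900912, - strand) 6.788% of 2 bins each, and the Gfap bins held 8 other protein-coding genes. Values for these 3 genes are therefore mainly values of the DNA around them. In the 1 Mb bins of 5hmC the share within the gene was 71.65% for Gpc5, 17.64% for Slc4a4, 13.21% for Slc1a2, 11.38% for Aldh1l1 and below 10% for the other 4.

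The CpG sites on which the measurements rest are unevenly spread along these genes. RefSeq windows of 300 bases around gene starts (250 bases before to 50 after, GRCm38.p6) were matched for 7 of the genes, with 8 windows in all, and their dinucleotide CG, which reads the same on both strands, was counted. The window of the upstream start of Slc4a4 held 50 CpG sites, a count reached by 0.855% of the 32851 windows in the table. A second Slc4a4 start inside the gene held 3 (76.7% of windows hold at least as many), and the Slc1a2 window held 1 (94.6%), whereas the median window held 7. These 3 windows are printed because Slc4a4 and Slc1a2 carried the largest 5mC differences of the 8 genes relative to their flanks. The Slc1a2 window lies inside the GENCODE span of the gene, at a start that RefSeq gives. No window at the 5′ end of that span was matched, so its CpG count does not describe that end. CG is in capitals, and all 3 lie on the + strand.
Slc4a4, upstream start, chr5:88887010-88887309: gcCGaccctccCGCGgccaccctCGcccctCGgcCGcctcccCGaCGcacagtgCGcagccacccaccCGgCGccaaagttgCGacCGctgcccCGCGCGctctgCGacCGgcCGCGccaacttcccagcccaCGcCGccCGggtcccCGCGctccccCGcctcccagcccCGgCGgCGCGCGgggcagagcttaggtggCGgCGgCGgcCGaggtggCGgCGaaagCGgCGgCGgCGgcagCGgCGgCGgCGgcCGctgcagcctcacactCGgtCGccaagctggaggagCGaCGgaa
Slc4a4, inner start, chr5:89027716-89028015: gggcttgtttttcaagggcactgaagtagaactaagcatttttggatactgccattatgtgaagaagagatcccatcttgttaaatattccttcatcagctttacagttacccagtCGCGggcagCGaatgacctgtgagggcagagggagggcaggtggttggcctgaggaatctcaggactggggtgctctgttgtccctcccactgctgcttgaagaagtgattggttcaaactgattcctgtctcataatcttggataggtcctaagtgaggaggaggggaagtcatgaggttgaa
Slc1a2, chr2:102706188-102706487: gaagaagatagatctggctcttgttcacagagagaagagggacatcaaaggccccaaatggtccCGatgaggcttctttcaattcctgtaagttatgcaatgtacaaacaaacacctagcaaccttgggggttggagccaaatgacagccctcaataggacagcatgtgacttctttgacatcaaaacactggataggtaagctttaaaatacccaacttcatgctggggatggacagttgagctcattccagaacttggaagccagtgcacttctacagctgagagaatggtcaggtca
The Gpc5 window held 17 CpG sites, those of Aldh1l1 and Gja1 held 9 and 8, and those of Gfap and Slc1a3 held 3 each. The Aldh1l1 and Gfap windows, like that of Slc1a2, lie inside the GENCODE spans of their genes, at starts that RefSeq gives. The 5′ ends of these spans had no matched window either. None of these counts is a methylation value, because the deposited bins are far wider than a window: the bin around the upstream Slc4a4 start held 1069 CpG sites.

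Levels were deposited as fractions without read counts, so the depth behind each value is unknown, counting error cannot be put in an interval, and the error is the SD between libraries. The median gene stood at a 5mC level of 0.614 to 0.644 in the cortex libraries, 0.660 to 0.669 in the olfactory bulb and 0.676 to 0.693 in the cerebellum, and at a 5hmC level of 0.166 to 0.186, 0.147 to 0.154 and 0.106 to 0.110 in the same order. Tissue differences of the 8 genes are thus given beside the shift of all genes. These medians did not overlap between tissues in either assay, so groups at a gene that do not overlap in the same order may restate that shift. The share of all genes whose groups do not overlap was not counted. Within cortex, library 3 had the lowest 5mC level at each of the 8 genes and library 2 of TAB-seq the highest 5hmC level at each. The same libraries were lowest and highest in the median over all genes.

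**Figure D1:**
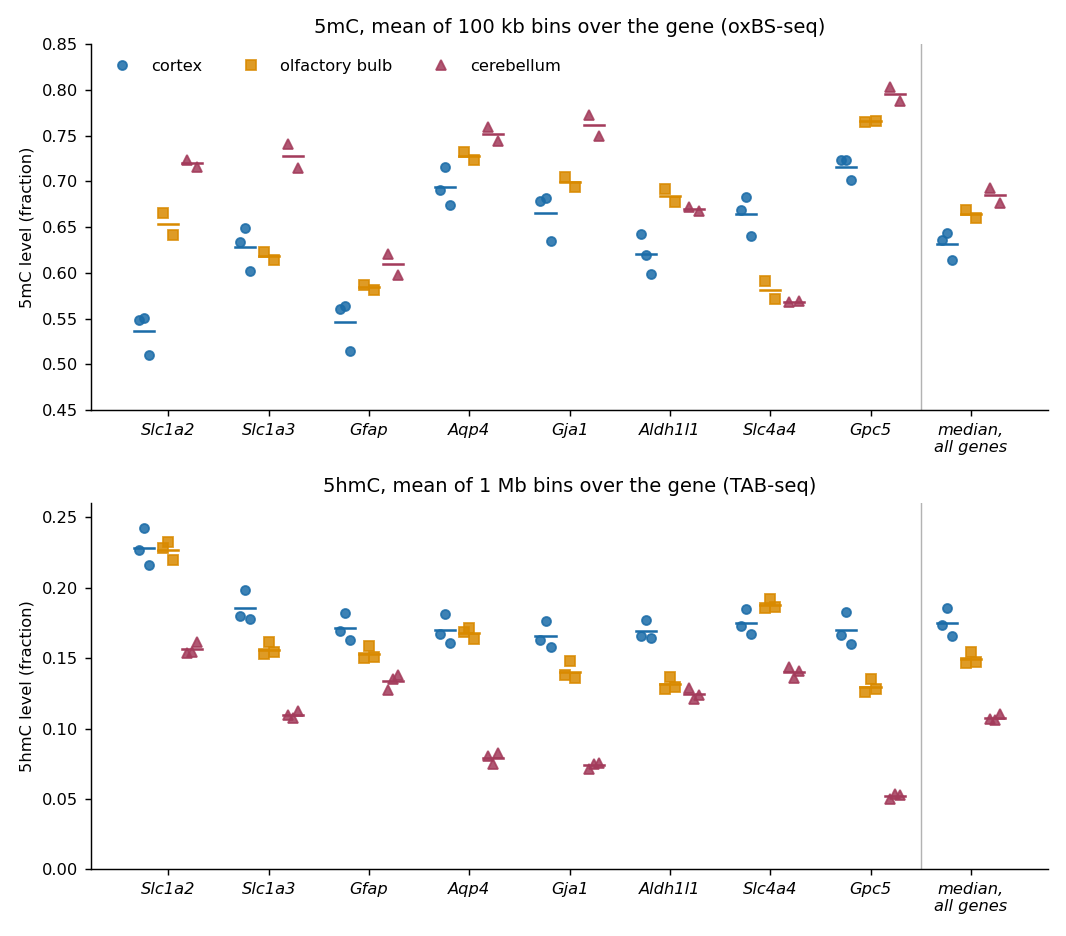
Levels of 5mC (top) and 5hmC (bottom) at the 8 genes as fractions, 1 point per library with the tissue mean as a bar, and at the right the median over all genes in each library. The 3 tissues separate most at Slc1a2 in the 5mC panel, the order of the tissues is turned at Slc4a4, and the cerebellum points of 5hmC are lowest at Gpc5.

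Changes in 5mC between tissues were tested by limma, with each level turned into log2(level/(1 - level)), here called the log2 ratio, over all genes at once with Benjamini-Hochberg adjustment, and a gene was called at an adjusted p below 0.05. Between olfactory bulb and cortex 3 of the 8 genes were called higher in olfactory bulb (Slc1a2, Aldh1l1 and Gpc5) against 26.4% of all genes tested, and Slc4a4 was called lower against 0.866%. The median change of the 8 was 0.23, against 0.20 over all genes. Between cerebellum and cortex 7 were called higher in cerebellum against 55.1%, and Slc4a4 again lower against 4.26%, with a median of 0.52 against 0.29. Between cerebellum and olfactory bulb Slc1a2, Slc1a3 and Gja1 were called higher against 18.0%, and none of the 8 lower against 7.69%, with a median of 0.22 against 0.08. When each library was first centred on its own median, the split changed. Then Slc1a2 alone was called higher and Slc1a3 and Slc4a4 lower in olfactory bulb than cortex, beside 3.56% and 4.73% of all genes. In cerebellum against cortex 4 were called higher (Slc1a2, Slc1a3, Gja1 and Gpc5) and Slc4a4 lower, beside 15.3% and 26.5%. In cerebellum against olfactory bulb 3 were called higher and 0 lower, beside 13.7% and 21.9%. Leaving out 1 library moved the count of called members from 4 to 2 in the first comparison (without olfactory bulb library 1), from 8 to 5 in the second (without cerebellum library 1) and from 3 to 1 in the third (without olfactory bulb library 2 or cerebellum library 1). The counts over all genes moved with them, from 5929 to 1032 in the first, from 12886 to 7233 in the second and from 5575 to 2449 or 2485 in the third.

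A second test compared the gene with its own surroundings, the bins within 500 kb on each side, as the difference of their log2 ratios. It removes a shift shared by the gene and its neighbourhood. Slc1a2 was called higher and Slc4a4 lower relative to their flanks in both tissues against cortex, where 3.08% of all genes were called higher and 2.56% lower in olfactory bulb and 11.5% and 11.7% in cerebellum. Between cerebellum and olfactory bulb Slc1a3 was called higher and Slc4a4 lower, beside 10.6% and 12.1% of all genes. The other genes did not pass this test in any of the 3 comparisons. As a description, the 5mC level of Slc1a3, Gja1 and Slc4a4 lay below that of the flanks in all 7 libraries, which 40.6% of genes do, and that of Gpc5 above it in all 7, which 25.7% do. The 8 genes span 34 bins of 100 kb. Of these, 20 were called higher and 5 lower in olfactory bulb than cortex, beside 37.6% and 2.18% of the 25664 bins tested, and 28 higher and 3 lower in cerebellum than cortex, beside 71.9% and 4.44%. In cerebellum against olfactory bulb 13 were higher and 2 lower, beside 35.3% and 7.69%. Gpc5 alone, with 16 of the bins, supplied 14, 16 and 4 of the higher bins in these comparisons. Slc4a4 supplied 5, 3 and 1 of the lower bins. Bins of 1 gene are neighbours and share libraries, so they are not replicates. Without olfactory bulb library 1 or 2, the called bins in the first comparison numbered 10 rather than 25, and in the third 9 without olfactory bulb library 1 or cerebellum library 1 and 8 without olfactory bulb library 2, rather than 15. Over all bins the counts went from 10197 to 3336 or 4187 in the first comparison, and in the third from 11043 to 6972 and 5821 without olfactory bulb library 1 and cerebellum library 1, and to 6205 without olfactory bulb library 2.

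**Figure D2:**
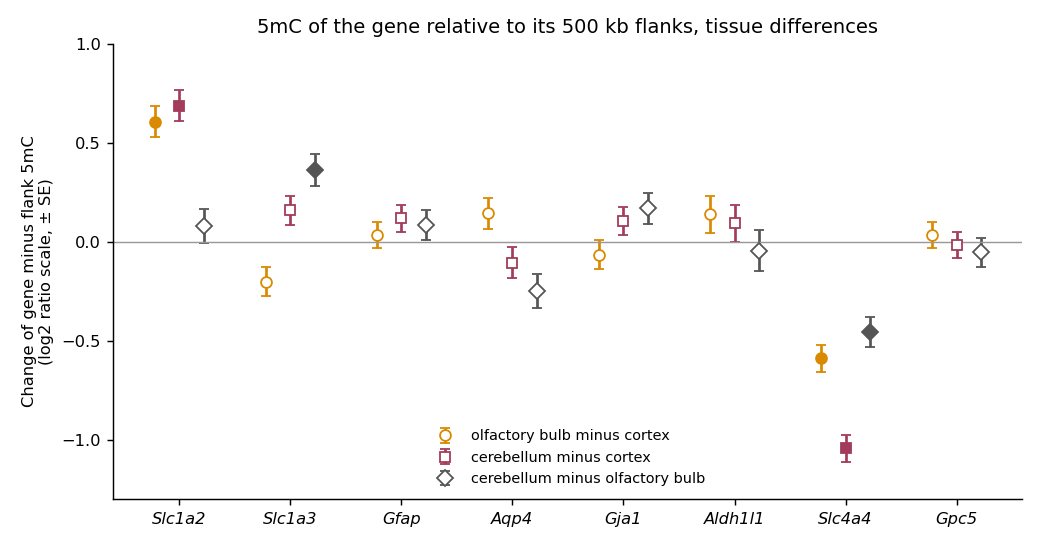
Difference between tissues in the 5mC log2 ratio of the gene minus that of its 500 kb flanks, with the standard error as bars. Filled symbols passed an adjusted p of 0.05 over all genes. Slc1a2 lies above 0 and Slc4a4 below 0 against cortex, while Gfap, Aqp4, Gja1, Aldh1l1 and Gpc5 have open symbols throughout.

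Slc4a4 had less 5mC in olfactory bulb and cerebellum than in cortex, whereas the median gene had more. Its gene level was 0.668, 0.683 and 0.640 in the cortex libraries, 0.591 and 0.571 in olfactory bulb, and 0.568 and 0.569 in cerebellum. All 4 libraries outside cortex lay below the 3 of cortex, and those of cerebellum lay just below those of olfactory bulb. The change from cortex was -0.51 (SE 0.11, adjusted p = 0.000969) in olfactory bulb and -0.58 (SE 0.11, adjusted p = 2.09e-05) in cerebellum, where all genes had medians of 0.20 and 0.29. Of all genes tested, 0.267% had a lower change in olfactory bulb and 0.488% in cerebellum. Cerebellum and olfactory bulb differed by -0.08 (SE 0.13, adjusted p = 0.708). The flanks did not share this pattern and stood at 0.682 ± 0.0196 (SD, n = 3) in the cortex, 0.694 ± 0.00903 (n = 2) in olfactory bulb and 0.747 ± 0.00787 (n = 2) in cerebellum. Relative to them the change of Slc4a4 was -0.59 (SE 0.07, adjusted p = 0.00141) in olfactory bulb, -1.04 (SE 0.07, adjusted p = 1.06e-05) in cerebellum, and -0.45 (SE 0.08, adjusted p = 0.002) in cerebellum against olfactory bulb. These calls held without any 1 library.

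Along Slc4a4 the difference between cerebellum and cortex was graded from the 5′ to the 3′ end, while olfactory bulb was called lower than cortex in all 5 bins, most in the second. In the bin that holds the first 13.18 kb of the gene and the DNA before it (88800001 to 88900000, which includes the CpG-rich window printed above), the 5mC level was 0.649, 0.672 and 0.653 in the cortex, 0.591 and 0.562 in olfactory bulb and 0.391 and 0.407 in cerebellum. The groups did not overlap, and cerebellum stood far below both other tissues. The change from cortex was -0.50 (adjusted p = 0.000299) in olfactory bulb and -1.54 in cerebellum, the latter being number 12 from the lowest among 25664 bins. Cerebellum against olfactory bulb gave -1.04. In the next bin, wholly inside the gene, cortex had 0.615, 0.639 and 0.584, olfactory bulb 0.489 and 0.473, and cerebellum 0.461 and 0.474. Here olfactory bulb had its steepest fall, -0.77 and number 55 from the lowest, and cerebellum -0.85, with a difference of -0.08 between the 2 (adjusted p = 0.648). In the third bin both were called lower by a like amount, -0.54 and -0.51 (adjusted p = 9.9e-05 and 4.3e-05). In the fourth, olfactory bulb was at -0.45 (adjusted p = 0.00124) and cerebellum at -0.10 (adjusted p = 0.42). In the last bin, which holds the 3′ end of the gene, olfactory bulb was at -0.28 (adjusted p = 0.0476) and cerebellum at 0.18 (adjusted p = 0.154). Cerebellum exceeded olfactory bulb there by 0.46 (adjusted p = 0.00195) and in the fourth bin by 0.35 (adjusted p = 0.0206). The gene level therefore averages a deep fall of cerebellum in the first bin with levels near those of cortex at the 3′ end. Most of that first bin is DNA before Slc4a4, so the fall there cannot be placed within the gene. When bins were weighted by the bases of the gene in them, the difference between cerebellum and olfactory bulb became 0.08 (adjusted p = 0.673). Over the 3 bins wholly inside the gene the level was 0.647 ± 0.0284 (SD, n = 3) in the cortex, 0.550 ± 0.0151 (n = 2) in olfactory bulb and 0.566 ± 0.00177 (n = 2) in cerebellum. Without olfactory bulb library 1 and library 2, the bins of the 8 genes called lower in olfactory bulb numbered 4 and 2, rather than the 5 of Slc4a4.

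**Figure D3:**
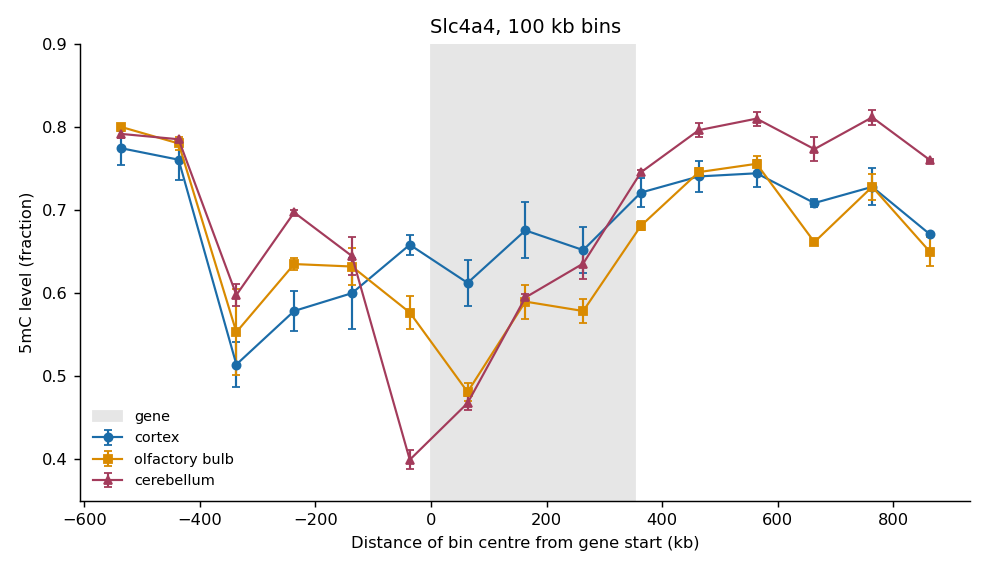
Mean 5mC level ± SD of the libraries (n = 3 cortex, 2 olfactory bulb, 2 cerebellum) in 100 kb bins across Slc4a4 and its flanks, by distance of the bin centre from the gene start in kb, with the gene in grey. The cerebellum line drops to 0.399 in the first bin that touches the gene and rises to 0.746 in the last, against 0.658 and 0.721 in cortex. The first bin holds 13.18 kb of the gene and is otherwise DNA before it.

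At the coarser scale of 1 Mb, 5hmC around Slc4a4 was highest in olfactory bulb. Its 5hmC level, the mean of 2 bins of 1 Mb, was 0.173, 0.185 and 0.167 in the cortex, 0.186, 0.192 and 0.186 in olfactory bulb, and 0.144, 0.136 and 0.141 in cerebellum. The lowest olfactory bulb library lay just above the highest of cortex. The change from cortex to olfactory bulb was 0.13 (SE 0.07, adjusted p = 0.0855) where the median gene changed by -0.27, and 98.69% of genes had a lower change. This change was called on the fraction scale (adjusted p = 0.0263) and with bins weighted by the bases of the gene (adjusted p = 0.0156). It was also called after centring on each library's median (0.40, adjusted p = 1.9e-06) and without cortex library 2 (0.18, adjusted p = 0.00432). In the other 8 of 9 fits that left out 1 library it was not called (limma, adjusted p up to 0.236). Cerebellum differed from cortex by -0.38 and from olfactory bulb by -0.50, both called, with medians over all genes of -0.76 and -0.50, and centring on library medians turned them to 0.44 (adjusted p = 1.02e-07) and 0.037 (adjusted p = 0.183). The 2 bins differed. In the bin with the 5′ part of the gene, from 88000001 to 89000000, the level was 0.162 ± 0.00792 (SD, n = 3) in the cortex, 0.159 ± 0.00308 (n = 3) in olfactory bulb and 0.153 ± 0.0056 (n = 3) in cerebellum, so that 5hmC differed by -0.00877 between cerebellum and cortex where the median bin differed by -0.0708. In the next bin it was 0.188 ± 0.0112, 0.217 ± 0.00389 and 0.128 ± 0.00248. Olfactory bulb was highest there, 0.0293 above cortex, while the median bin differed by -0.0198.

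Slc1a2 had among the largest 5mC gains of all genes. Its gene level was 0.549, 0.551 and 0.510 in the cortex, 0.665 and 0.641 in olfactory bulb, and 0.723 and 0.716 in cerebellum, and no library of 1 tissue overlapped another tissue. The change from cortex was 0.70 (SE 0.11, adjusted p = 9.06e-06) in olfactory bulb and 1.15 (SE 0.11, adjusted p = 1.83e-12) in cerebellum, higher than that of 99.55% and 99.83% of genes. In cortex the gene stood below its flanks, with a difference in level of -0.101 ± 0.00741 (SD, n = 3), and only 17.48% of genes had a lower level. In olfactory bulb and cerebellum the gene and its flanks were nearly level, with differences of 0.00029 ± 0.0177 (n = 2) and 0.0119 ± 0.0154 (n = 2). Relative to the flanks the change was 0.61 (SE 0.08, adjusted p = 0.00258) in olfactory bulb and 0.69 (SE 0.08, adjusted p = 0.000252) in cerebellum, and these calls held without any 1 library. Cerebellum also exceeded olfactory bulb in the gene level, by 0.45 (SE 0.13, adjusted p = 0.00548), a call lost without olfactory bulb library 2 (0.37, adjusted p = 0.143) or cerebellum library 1 (0.42, adjusted p = 0.0733). Against the flanks that difference was 0.08 (adjusted p = 0.545). Both bins of the gene showed the change. The bin at its 5′ end, shared with Pamr1, rose by 0.72 in olfactory bulb and 1.05 in cerebellum, and the bin with the 3′ part, where no other protein-coding gene lies, by 0.69 and 1.27.

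The 1 Mb bin of Slc1a2 was rich in 5hmC. The level was 0.227, 0.242 and 0.216 in the cortex, 0.228, 0.233 and 0.220 in olfactory bulb and 0.154, 0.154 and 0.161 in cerebellum. Cortex and olfactory bulb overlapped, with a change of -0.01 (SE 0.07, adjusted p = 0.887) while the median gene changed by -0.27, and 99.22% and 99.26% of genes had lower levels in the 2 tissues. Cerebellum was lower than cortex, a change of -0.67, and than olfactory bulb, -0.66, both called, where the median gene changed by -0.76 and -0.50. After centring on library medians the change from cortex to cerebellum was 0.14 (adjusted p = 0.000163), the opposite direction. Of the sum of 5mC and 5hmC in this bin, 5hmC made up 27.7% in the cortex, 26.41% in olfactory bulb and 18.4% in cerebellum, against 19.41%, 16.98% and 11.48% over all 2581 bins. The sum was 0.824 ± 0.0208 in the cortex, 0.859 ± 0.00773 in olfactory bulb and 0.849 ± 0.0157 in cerebellum, where the error combines the SDs of the 2 assays in quadrature.

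Slc1a3, the other glutamate transporter, separated cerebellum from both other tissues. Its 5mC level was 0.634, 0.649 and 0.602 in the cortex, 0.623 and 0.614 in olfactory bulb and 0.741 and 0.715 in cerebellum. Cortex and olfactory bulb overlapped, and cerebellum lay above both. From cortex the change was 0.66 (SE 0.12, adjusted p = 2.66e-06) in cerebellum and -0.06 (SE 0.12, adjusted p = 0.685) in olfactory bulb. The latter was -0.26 relative to the median change of all genes, with 5.581% of genes lower, and was called only after centring on each library's median (-0.27, adjusted p = 0.0338). Cerebellum exceeded olfactory bulb by 0.72 (SE 0.13, adjusted p = 8.33e-06), more than 98.11% of genes. The flanks of Slc1a3 were also highest in cerebellum, and relative to them the difference between cerebellum and olfactory bulb was 0.36 (SE 0.08, adjusted p = 0.00906), a call lost without olfactory bulb library 2 (0.34, adjusted p = 0.052), cerebellum library 1 (0.355, adjusted p = 0.0648) or cerebellum library 2 (0.37, adjusted p = 0.0589). Cerebellum against cortex gave 0.16 (adjusted p = 0.14) on that measure, and 0.22 (adjusted p = 0.0372) with flanks of 1 Mb. Both bins of Slc1a3 were called higher in cerebellum than in either other tissue, with changes of 0.69 and 0.64 against cortex. The 5hmC level was 0.180, 0.198 and 0.178 in the cortex, 0.153, 0.161 and 0.154 in olfactory bulb and 0.109, 0.108 and 0.112 in cerebellum. The tissues did not overlap, and the changes from cortex, -0.30 and -0.88, lay close to the medians of all genes, -0.27 and -0.76.

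**Figure D4:**
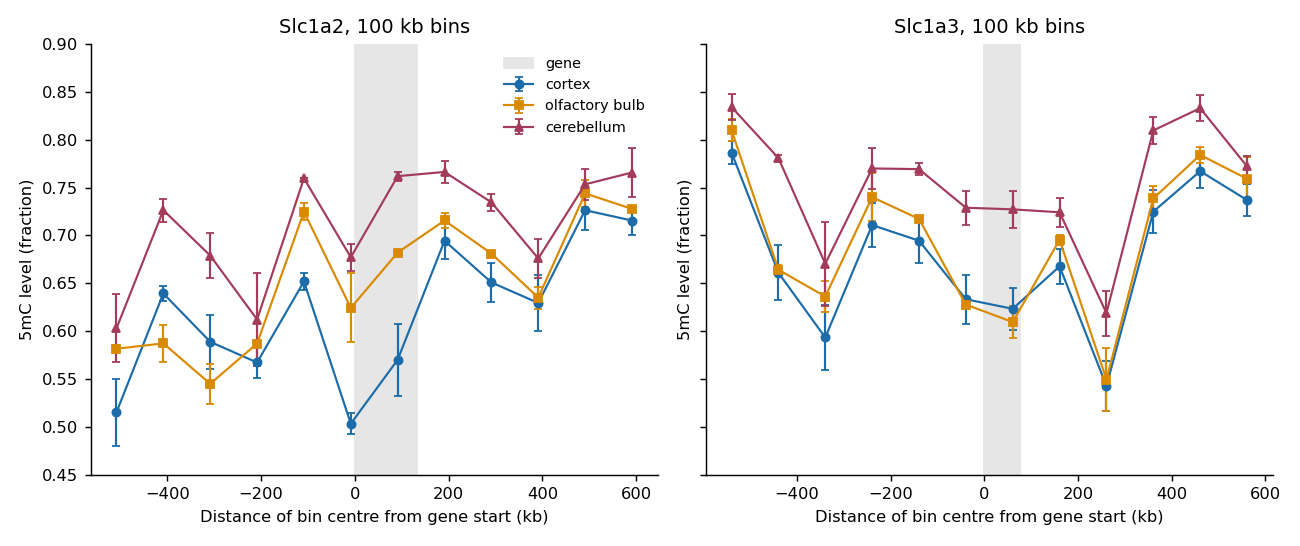
Mean 5mC level ± SD of the libraries (n = 3 cortex, 2 olfactory bulb, 2 cerebellum) in 100 kb bins across Slc1a2 (left) and Slc1a3 (right) and their flanks, by distance of the bin centre from the gene start in kb, with the gene in grey. At Slc1a2 the cortex line dips to 0.503 and 0.570 over the gene, and at Slc1a3 cortex and olfactory bulb run together below cerebellum.

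Gpc5, the longest of the 8 genes, had the highest 5mC of them and, on the log2 ratio scale, the largest fall of 5hmC in cerebellum. Its 5mC level was 0.723, 0.723 and 0.701 in the cortex, 0.764 and 0.766 in olfactory bulb and 0.803 and 0.788 in cerebellum, in 3 groups that did not overlap. It rose by 0.37 (SE 0.11, adjusted p = 0.0126) in olfactory bulb, a call lost without olfactory bulb library 1 (0.38, adjusted p = 0.137) or 2 (0.36, adjusted p = 0.109). In cerebellum it rose by 0.62 (SE 0.11, adjusted p = 6.07e-06), and the difference between cerebellum and olfactory bulb was 0.25 (adjusted p = 0.13; 0.0479 without cortex library 3). Gene and flanks moved together, with changes relative to the flanks between -0.05 and 0.04 in the 3 comparisons (adjusted p = 0.643 or more). Of its 16 bins, 14 were called higher in olfactory bulb and all 16 in cerebellum than in cortex. The bin with the 5′ end, of which 7.786 kb belong to the gene, had the lowest level in each tissue, 0.562 ± 0.0111 (SD, n = 3) in the cortex, 0.636 ± 0.0122 (n = 2) in olfactory bulb and 0.664 ± 0.0103 (n = 2) in cerebellum. The 14 bins wholly inside averaged 0.726 ± 0.0147, 0.775 ± 0.00168 and 0.804 ± 0.0107. Among them the rise from cortex to cerebellum ranged from 0.41 to 0.93.

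**Figure D5:**
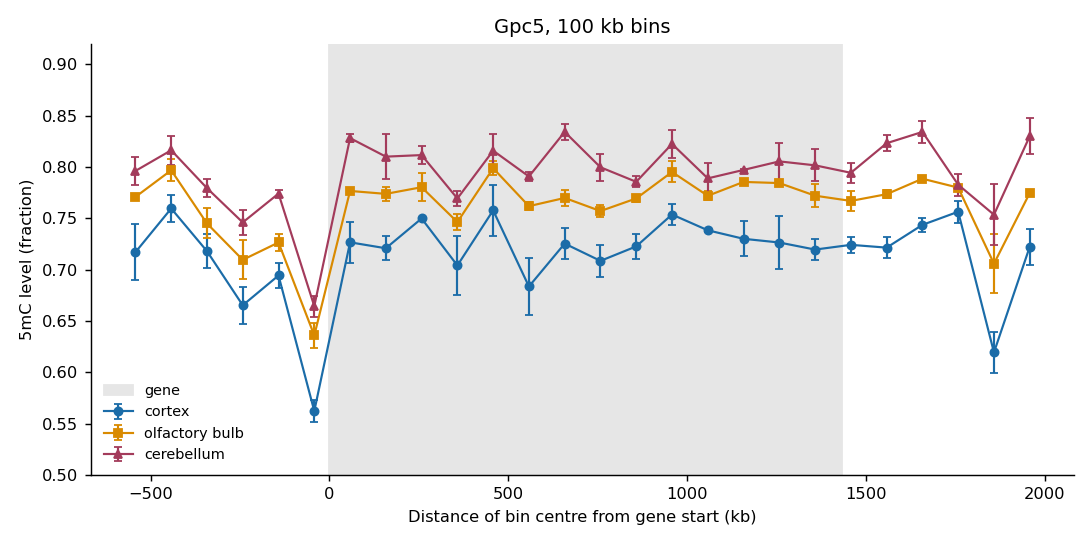
Mean 5mC level ± SD of the libraries (n = 3 cortex, 2 olfactory bulb, 2 cerebellum) in 100 kb bins across Gpc5 and its flanks, by distance of the bin centre from the gene start in kb, with the gene in grey. Within the gene the means of all 16 bins stand in the order cortex, olfactory bulb, cerebellum, with the lowest levels in the bin at its 5′ end.

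The 5hmC level of Gpc5 was 0.166, 0.183 and 0.160 in the cortex, 0.126, 0.135 and 0.128 in olfactory bulb and 0.0500, 0.0534 and 0.0531 in cerebellum. The highest cerebellum library thus lay far below the lowest of olfactory bulb. Tested by limma in the same way as 5mC, the change was -0.46 in olfactory bulb and -1.89 in cerebellum against cortex, and -1.43 between cerebellum and olfactory bulb (SE 0.07 each, a value shared by all genes in this assay). The median gene changed by -0.27, -0.76 and -0.50 in the same comparisons. Only 0.919% of genes had a lower change from cortex to cerebellum. As fractions, its bins differed by -0.0866 and -0.0680 between cerebellum and olfactory bulb, where the median bin differed by -0.0498. On that scale 10.34% and 27.55% of all bins were lower, among them the Aqp4 bin (-0.0885) and the second Slc4a4 bin (-0.0896). In the bin from 115000001 to 116000000, 5hmC fell from 19.7% of the sum of both marks in the cortex to 15.37% in olfactory bulb and 6.04% in cerebellum, and in the bin from 116000001 to 117000000 from 18.69% to 13.59% and 6.265%.

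Over the 8 genes, 5hmC was called lower in olfactory bulb than cortex at 5 (Gpc5, Aldh1l1, Slc1a3, Gja1 and Gfap), beside 77.9% of all genes, and at 0 called higher, beside 1.07%. In cerebellum all 8 were called lower than in cortex, beside 98.4% lower and 0.124% higher among all genes. Against olfactory bulb 7 were called lower in cerebellum, all but Aldh1l1, beside 88.0% lower and 1.02% higher. With each library centred on its median, 4 of the 8 were called higher and 2 lower in olfactory bulb than cortex (37.3% and 30.8% of all genes), 4 and 4 in cerebellum against cortex (48.5% and 38.7%), and 2 and 5 in cerebellum against olfactory bulb (47.2% and 38.7%). After centring, 5hmC in cerebellum was called higher than in cortex at Slc4a4, Gfap, Aldh1l1 and Slc1a2. It was called lower at Gpc5, Gja1, Aqp4 and Slc1a3, a split close to the shares of all genes just given. At Slc1a2 the direction relative to the rest depended on the scale. Its log2 ratio change was above that of 58.44% of genes, but as a fraction its bin changed by -0.0720 where the median bin changed by -0.0708. As a description, the 1 Mb bins of Slc1a2, Slc1a3 and Gja1 had more 5hmC than their flank in all 9 libraries, as 33.7% of genes do. For each of these genes the 500 kb on each side reached only 1 neighbouring bin, so the bin on the other side was not compared. The bins of Aldh1l1 and Gpc5 had less 5hmC than the 2 bins of their flanks in all 9 libraries, as 33.6% of genes do. No flank could be formed for Slc4a4 in this assay, because its 2 bins already take in the 500 kb on each side.

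The mean 5mC level over the 3 bins of Aldh1l1 was highest in olfactory bulb, by a difference from cerebellum that was not called. The level was 0.643, 0.620 and 0.599 in the cortex, 0.692 and 0.677 in olfactory bulb and 0.671 and 0.667 in cerebellum. Both other tissues lay above cortex, and cerebellum lay just below olfactory bulb. The change was 0.41 (SE 0.11, adjusted p = 0.00719) in olfactory bulb and 0.31 (SE 0.11, adjusted p = 0.0175) in cerebellum, the latter 0.017 above the median of all genes and -0.033 (adjusted p = 0.751) after centring. The first call was lost without olfactory bulb library 1 (0.36, adjusted p = 0.167), and the second without cerebellum library 1 (0.30, adjusted p = 0.119) or 2 (0.32, adjusted p = 0.0665). No comparison with the flanks was called. Of its 3 bins, the middle one lies wholly in the gene and rose from 0.638 ± 0.00862 (SD, n = 3) in the cortex to 0.687 ± 0.00176 (n = 2) in olfactory bulb and 0.711 ± 0.00485 (n = 2) in cerebellum. The last bin, with 0.203 kb of the gene, also holds Slc41a3 and Iqsec1 and was called lower in cerebellum than olfactory bulb, at -0.43 (adjusted p = 0.00396), whereas the other 2 bins were not called different between these tissues. Weighting by the bases of the gene gave a difference between cerebellum and olfactory bulb of 0.13 (adjusted p = 0.456) in place of -0.10 (adjusted p = 0.602). The 5hmC level of Aldh1l1 was 0.166, 0.177 and 0.164 in the cortex, 0.128, 0.137 and 0.129 in olfactory bulb and 0.129, 0.121 and 0.124 in cerebellum. Olfactory bulb and cerebellum overlapped, and both lay below cortex, with changes of -0.43 and -0.52 where the median gene changed by -0.27 and -0.76. After centring on library medians the change in cerebellum turned to 0.30 (adjusted p = 9.19e-06). Without centring, Aldh1l1 was the only one of the 8 genes at which cerebellum and olfactory bulb were not called different in 5hmC (-0.09, SE 0.07, adjusted p = 0.229). Of all genes, 92.02% had a lower change. With centring Aldh1l1 was called higher in cerebellum than olfactory bulb (0.45, adjusted p = 4.17e-07), and Slc4a4 was the gene not called.

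The remaining 3 genes are short, and their values describe the pair of bins around them. At Gja1 the 5mC level was 0.679, 0.682 and 0.635 in the cortex, 0.705 and 0.694 in olfactory bulb and 0.773 and 0.749 in cerebellum, in 3 groups that did not overlap. Cerebellum exceeded cortex by 0.68 (SE 0.12, adjusted p = 1.82e-06) and olfactory bulb by 0.45 (SE 0.13, adjusted p = 0.00503), the latter lost without olfactory bulb library 2 (0.42, adjusted p = 0.0879) or cerebellum library 1 (0.36, adjusted p = 0.135). Olfactory bulb against cortex gave 0.23 (adjusted p = 0.126). Relative to the flanks cerebellum against cortex was 0.11 (adjusted p = 0.311), and it was called only with flanks of 1 Mb (0.20, adjusted p = 0.0462). The 5hmC level of Gja1 was 0.163, 0.176 and 0.158 in the cortex, 0.138, 0.148 and 0.136 in olfactory bulb and 0.0716, 0.0750 and 0.0757 in cerebellum, where the change from cortex was -1.31.

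At Aqp4 (chromosome 18, 15389496 to 15410982) the 5mC level was 0.691, 0.716 and 0.674 in the cortex, 0.732 and 0.723 in olfactory bulb and 0.760 and 0.744 in cerebellum. The order was the same as at Gja1 and in the library medians over all genes, with no overlap. From cortex the change was 0.42 (SE 0.11, adjusted p = 0.00149) in cerebellum and 0.24 (SE 0.11, adjusted p = 0.102) in olfactory bulb. The first was lost without cerebellum library 1 (0.36, adjusted p = 0.057) and the second was called without cortex library 2 (0.315, adjusted p = 0.0477). Against its flanks, Aqp4 differed between cerebellum and olfactory bulb by -0.25 (adjusted p = 0.0589), which was called without cortex library 2 (adjusted p = 0.0363) or 3 (adjusted p = 0.0444). The 5hmC level was 0.167, 0.182 and 0.161 in the cortex, 0.169, 0.171 and 0.164 in olfactory bulb, and 0.0803, 0.0750 and 0.0825 in cerebellum. Cortex and olfactory bulb overlapped, with a change of -0.02 (adjusted p = 0.807), and cerebellum lay below both, with changes of -1.25 and -1.23. Of all genes, 4.27% had a lower change between cerebellum and olfactory bulb.

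At Gfap the 5mC level was the lowest of the 8 in olfactory bulb apart from Slc4a4, 0.587 and 0.582, with 0.560, 0.564 and 0.514 in cortex and 0.621 and 0.598 in cerebellum. The groups did not overlap. From cortex the change was 0.22 (SE 0.12, adjusted p = 0.129) in olfactory bulb and 0.37 (SE 0.12, adjusted p = 0.00468) in cerebellum, close to the medians of all genes, and the latter was lost without cerebellum library 1 (0.31, adjusted p = 0.109). In the bin that holds 12.66 kb of the gene, and 5 other protein-coding genes, the level was 0.574 ± 0.0169 (SD, n = 3) in the cortex, 0.629 ± 0.00107 (n = 2) in olfactory bulb and 0.647 ± 0.000991 (n = 2) in cerebellum, and weighting by the bases of the gene brought the call in olfactory bulb (0.32, adjusted p = 0.0332). The 5hmC level was 0.169, 0.182 and 0.163 in the cortex, 0.150, 0.159 and 0.151 in olfactory bulb and 0.127, 0.135 and 0.138 in cerebellum. Its change from cortex to cerebellum, -0.43, was smaller in size than the median of all genes, -0.76, and turned to 0.39 (adjusted p = 2.79e-07) after centring.

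In cortex the order of the 5mC gene levels was Slc1a2 (0.537), Gfap (0.546), Aldh1l1 (0.620), Slc1a3 (0.628), Slc4a4 (0.664), Gja1 (0.665), Aqp4 (0.693) and Gpc5 (0.716), with SDs over the 3 libraries of 0.0126 to 0.0278. Slc1a2 and Gfap, Aldh1l1 and Slc1a3, and Slc4a4 and Gja1 differed by less than those SDs. In cerebellum Slc4a4 (0.569 ± 0.000658, SD, n = 2) was lowest, followed by Gfap (0.609), Aldh1l1 (0.669), Slc1a2 (0.720), Slc1a3 (0.728), Aqp4 (0.752), Gja1 (0.761) and Gpc5 (0.795 ± 0.0106). There Slc1a2 and Slc1a3, and Aqp4 and Gja1, differed by less than the larger of their SDs. Slc1a2 thus moved from the lowest place to the fourth, and Slc4a4 from the fifth to the lowest.

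A list of 20 other astrocyte genes, among them the glutamine synthetase gene Glul and the cell adhesion gene Hepacam, was described in the same fits. In 5mC 8 were called higher and 0 lower in olfactory bulb than cortex, 16 and 0 in cerebellum than cortex, and 4 and 0 in cerebellum than olfactory bulb, beside the 26.4% and 0.866%, 55.1% and 4.26%, and 18.0% and 7.69% of all genes given above. The medians were 0.24, 0.39 and 0.17 beside those of all genes, 0.20, 0.29 and 0.08. Hepacam rose by 0.84 (adjusted p = 1.14e-08) and Htra1, a secreted serine protease gene, by 0.77 (adjusted p = 1.18e-07) from cortex to cerebellum, and Fgfr3, a fibroblast growth factor receptor gene, by 0.55 (adjusted p = 0.000333) and S100b, a calcium-binding protein gene, by 0.49 (adjusted p = 0.00132) from cortex to olfactory bulb. From olfactory bulb to cerebellum Slc6a11, a GABA transporter gene, rose by 0.59 (adjusted p = 0.000223) and Glul by 0.51 (adjusted p = 0.00135). No gene of that list was called lower in 5mC, as Slc4a4 was, but with libraries centred on their medians 2, 1 and 1 were called lower and 3, 6 and 4 higher. In 5hmC the list had 15, 20 and 20 genes called lower in the 3 comparisons and 0 higher, beside 77.9%, 98.4% and 88.0% of all genes called lower. With libraries centred on their medians 11, 5 and 2 of the list were called higher in 5hmC and 2, 9 and 13 lower. Among 12 oligodendrocyte genes 7, 9 and 1 were called higher in 5mC and 0 lower, and among 12 neuronal genes 3, 7 and 6 were called higher and 3, 3 and 3 lower, to be read beside the same 26.4%, 55.1% and 18.0% higher and 0.866%, 4.26% and 7.69% lower of all genes. After centring these were 0, 2 and 1 higher and 0, 1 and 2 lower for the oligodendrocyte genes, and 1, 5 and 5 higher and 5, 4 and 4 lower for the neuronal genes. In 5hmC without centring 12, 12 and 11 oligodendrocyte genes and 6, 11 and 11 neuronal genes were called lower, beside 77.9%, 98.4% and 88.0% of all genes. With centring both lists split, at 3, 6 and 6 oligodendrocyte genes higher and 2, 5 and 6 lower, and 7, 7 and 6 neuronal genes higher and 2, 5 and 5 lower. These lists describe the DNA of the genes in all cells of the tissue and not the abundance of a cell type.

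For each of the 8 genes, the gene on another chromosome with the most similar 5mC log2 ratio over the 7 oxBS-seq libraries was also found. Pearson's r over 7 libraries of 3 tissues mostly restates the order of the tissues and is a description. Slc4a4 was most like Meis1, a homeobox gene (r = 0.984), whose 5mC level was 0.614 ± 0.0224 (SD, n = 3) in the cortex, 0.550 ± 0.0237 (n = 2) in olfactory bulb and 0.543 ± 0.00459 (n = 2) in cerebellum. Of the 8 genes only Slc4a4 had 0 genes with an r above 0.99, while the others had between 11 and 229. Slc1a2 was most like Plcl1 (r = 0.9991), which rose from 0.628 ± 0.0166 to 0.702 ± 0.0132 and 0.742 ± 0.00544. Slc1a3 was most like Sdk2 (r = 0.9991) at 0.629 ± 0.0164, 0.623 ± 0.00587 and 0.706 ± 0.0121. The closest genes to Gfap, Aqp4, Gja1, Aldh1l1 and Gpc5 were Ctsc, Ltf, Slc14a2, Mrps27 and Mamdc2, with r between 0.9933 and 0.9989.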

How the data were processed

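The analysed libraries measured 5hmC by TAB-seq (9 in all, 3 from each tissue) and 5mC by oxBS-seq (7 in all, of which 3 were from cortex). The authors mapped read pairs uniquely to mm10 with Bismark (version not given in the sources used here), modelled each CpG site with a binomial test, and deposited fractions between 0 and 1 for the bins of every library. Coverage was not given in these tables and the rule for combining sites within a bin is not stated, so depth is unknown and precision was judged from the spread between libraries. Before any test, bins in which some library of the assay had a level of exactly 0 or 1 were dropped, which kept 25664 bins of 100 kb and 2581 bins of 1 Mb.

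Gene levels were unweighted means of the overlapping bins, for 21718 protein-coding genes in 5mC and 21755 in 5hmC. Levels were tested as log2(level/(1 - level)) with limma 3.58.1 in R 4.3.3, in 1 fit over the tissues per assay with Benjamini-Hochberg adjustment over all genes or bins. For 5hmC limma estimated 1 common variance for all genes, and its adjusted p-values are correspondingly small. For 5mC without centring, limma also gave a common variance a large weight, that of 66.4 degrees of freedom for genes and 905 for bins. After centring these were 6.3 and 10.7. Exact permutation tests were not used, because they cannot reach 0.05 with these numbers of libraries. Groups and replicate numbers came from the labels. For oxBS-seq of olfactory bulb and cerebellum the numbers in the labels differ from those in the deposited library names, and the labels were used. Deviations from the tissue means did not correlate above 0.1 in every same-numbered pair (r between -0.126 and 0.430), so the numbers were not taken as pairs. In 5hmC, r was 0.430 for olfactory bulb and cortex 1, and 0.388 and 0.396 for cerebellum and olfactory bulb 1 and 2. Whether same-numbered libraries share a mouse or batch is not known. The 8 genes, the other gene lists and the tests were chosen with earlier results of these data known. Named outside the 8 are, per 5mC comparison, at most 2 other astrocyte genes with the largest called change in each direction, and for each of the 8 the gene on another chromosome with the highest r. Alternatives were the fraction scale, no filter on bins with levels limited to 0.001 to 0.999, centring on library medians, limma's trend and robust options, weighting by bases, flanks of 1 Mb, a replicate block, and leaving out each library. Python 3.11.15 with pandas 2.3.3, numpy 2.4.6 and matplotlib 3.10.9 was used for the tables and plots, and CpG sites were counted in the GRCm38 sequence.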

Additional observations from a re-analysis of the deposited data

Results flagged for a closer look

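In 3 of the 8 genes the 5mC level relative to the 500 kb flanks differed between tissues past the adjusted threshold of limma, which is what singled them out. Of all genes, 3.08% were called higher and 2.56% lower in olfactory bulb against cortex, 11.5% and 11.7% in cerebellum against cortex and 10.6% and 12.1% in cerebellum against olfactory bulb. At Slc4a4 the change was -0.59 from cortex to olfactory bulb, -1.04 from cortex to cerebellum and -0.45 from olfactory bulb to cerebellum. At Slc1a2 it was 0.61 from cortex to olfactory bulb and 0.69 from cortex to cerebellum. At Slc1a3 it was 0.36 from olfactory bulb to cerebellum, a call that was lost without olfactory bulb library 2 or without either cerebellum library. The part that the mix of cells in each tissue plays in these values was not tested. No group of an assay had more than 3 libraries, so single libraries were not tested as outliers.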

How the results depend on the processing

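Of 432 changes of the 8 genes recomputed under settings other than leaving out a library, 405 kept their direction and their side of the threshold, as did 527 of 552 with 1 library left out. Centring on each library's median gave 1802 rather than 5929 called genes and 11 rather than 25 called bins of the 8 genes (4802 rather than 10197 of all bins) in 5mC of olfactory bulb against cortex, and 5 rather than 8 of the genes and 20 rather than 31 of their bins (12841 rather than 19596 of all bins) in cerebellum against cortex. Flanks of 1 Mb gave 4 rather than 2 called genes in cerebellum against cortex (5830 rather than 5048 of all genes). Centring also turned the sign of Aldh1l1 5mC in cerebellum against cortex (-0.033) and of 5hmC changes: 0.26 for Slc1a2, 0.079 for Gfap and 0.25 for Aqp4 in olfactory bulb against cortex, 0.14 for Slc1a2, 0.39 for Gfap, 0.30 for Aldh1l1 and 0.44 for Slc4a4 in cerebellum against cortex, and 0.31 for Gfap, 0.45 for Aldh1l1 and 0.037 for Slc4a4 in cerebellum against olfactory bulb. Centring removes a shift of 0.20 to 0.29 (5mC, against cortex) or -0.27 to -0.76 (5hmC) by construction. Weighting by the bases of the gene turned uncalled differences between cerebellum and olfactory bulb at Aldh1l1 (0.13, and 0.19 relative to flanks) and Slc4a4 (0.085), and the cause was not tested.

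Leaving out 1 library, with a lone remaining library assumed to vary like the other groups, gave 2 to 5 called genes of the 8 in 5mC of olfactory bulb against cortex (1032 to 6690 of all genes), 5 to 8 in cerebellum against cortex (7233 to 12917) and 1 to 4 in cerebellum against olfactory bulb (2449 to 8009). Relative to the flanks it gave 2, 2 and 1 to 3 (347 to 1073, 1904 to 5086 and 2187 to 5657 of all genes). For bins it gave 10 to 25, 28 to 31 and 8 to 18 (3336 to 10199, 14816 to 19454 and 5821 to 13299 of all bins). For 5hmC it gave 5 to 6, 8 and 7 (14993 to 18831, 21353 to 21559 and 18751 to 20155 of all genes). Uncalled changes near 0 turned sign at Slc1a3 5mC in olfactory bulb against cortex (0.0027 without cortex library 2, range -0.14 to 0.0027), Aldh1l1 relative to flanks in cerebellum against olfactory bulb (0.050 without olfactory bulb library 1, range -0.14 to 0.050), and 5hmC in olfactory bulb against cortex at Slc1a2 (0.046 without cortex library 2 and 0.019 without olfactory bulb library 3, range -0.062 to 0.046) and Aqp4 (0.042 and 0.0033 without the same libraries, range -0.064 to 0.042).

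With the replicate number as a block, the called genes of the 8 were again 4, 8 and 3 in 5mC, 2, 2 and 2 relative to flanks and 5, 8 and 7 in 5hmC. The block changed no gene-level call of the 8 genes. Their called bins numbered 24, 30 and 19 rather than 25, 31 and 15. The correlations of same-numbered libraries ranged from -0.126 to 0.0299 in 5mC and from -0.0858 to 0.430 in 5hmC. With so few libraries they cannot show whether same-numbered libraries share a mouse or batch. Precision is limited by 2 libraries per tissue outside cortex in oxBS-seq, by bins wider than most of the genes and by the missing coverage.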
